A study of Mus musculus with 4 samples.

Results

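Lipolysis is the release of stored fat from adipocytes, and the open chromatin linked to 5 genes of its signalling chain was compared here between male and female mice. The genes were Lipe, Plin4, Npr1, Prkaca and Pde4d, taken by name from the gene table of an ATAC-seq study, so 5 of 11993 genes, with 13 of 12477 merged open regions linked to them. ATAC-seq cuts and tags open DNA in nuclei with the Tn5 transposase. The tissue was subcutaneous white fat of WT (wild-type) mice, frozen and ground before nuclei were taken, with 2 male and 2 female libraries. Coordinates are of the build mm10, and the labels name no strain, age or treatment. Since no label ties the libraries of a sex to separate animals, the p-values measure only the spread between these samples, which may be technical. In the main comparison that spread was taken from the trend across genes of like height, not from the libraries of a single gene.

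Catecholamines acting on beta-adrenergic receptors raise cyclic AMP in adipocytes, and cyclic AMP frees the catalytic subunit of protein kinase A, which Prkaca encodes. The kinase phosphorylates the perilipin coat of the lipid droplet and hormone-sensitive lipase, the product of Lipe, which cleaves diacylglycerol. Plin4 encodes perilipin 4, a coat protein of lipid droplets. Npr1 encodes the receptor of atrial and brain natriuretic peptides, which makes cyclic GMP, a second route to lipolysis described best in human adipocytes. Pde4d encodes a phosphodiesterase that breaks down cyclic AMP.

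The deposited value of a gene was a height, the scaled number of overlapping tags at the top of a region, which the authors averaged over all regions of that gene. Heights are not divided by length. With no read totals in the sources used here, the depth behind a height is unknown. The whole series was lower in males: the mean height over all genes was 25.3 in male 1 and 16.8 in male 2, against 40.9 in female 1 and 32.5 in female 2. Called peaks numbered 5484 and 4049 in the males and 10238 and 8022 in the females. Male 2 stood apart, with a median peak width of 284 bp, against 171 bp in male 1, and 160 and 165 bp in the females. In bulk tissue, fewer cells of a type and less open chromatin per cell cannot be told apart. Of 14 adipocyte markers 10 were measured, none was at 0 in a library, and their summed height was 195.7 and 129.8 in males and 342.7 and 274.6 in females. Adipoq, Fabp4, Lep and Plin1 had no row in the table used and were not analysed here.

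Of the 5 genes, 3 had a linked region that overlaps a promoter window of the RefSeq table (GRCm38.p6, the assembly of mm10), as had 70.2% of the 9165 genes with such a window. Each window runs from 250 bases before an annotated start to 50 after it. The regions of Lipe and Plin4 cover the start itself, and that of Prkaca ends just before it. The windows of Lipe, Plin4 and Prkaca are printed because regions whose heights are compared between the sexes lie on them. Capitals mark the bases inside the merged region, and each sequence runs 5′ to 3′ along the gene's strand. The window of Lipe, at the downstream of its RefSeq starts, is chr7:25390063-25390362 on the minus strand, that of Plin4 chr17:56109733-56110032 on the minus strand, and that of Prkaca chr8:83972728-83973027 on the plus strand.
Lipe: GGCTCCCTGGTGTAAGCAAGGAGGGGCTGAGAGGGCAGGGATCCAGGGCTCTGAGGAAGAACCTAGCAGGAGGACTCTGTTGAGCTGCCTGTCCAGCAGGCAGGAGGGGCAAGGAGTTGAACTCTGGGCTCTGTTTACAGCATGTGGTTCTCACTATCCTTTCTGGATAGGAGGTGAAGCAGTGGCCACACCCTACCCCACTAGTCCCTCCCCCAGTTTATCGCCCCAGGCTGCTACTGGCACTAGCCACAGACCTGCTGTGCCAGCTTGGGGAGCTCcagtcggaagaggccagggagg
Plin4: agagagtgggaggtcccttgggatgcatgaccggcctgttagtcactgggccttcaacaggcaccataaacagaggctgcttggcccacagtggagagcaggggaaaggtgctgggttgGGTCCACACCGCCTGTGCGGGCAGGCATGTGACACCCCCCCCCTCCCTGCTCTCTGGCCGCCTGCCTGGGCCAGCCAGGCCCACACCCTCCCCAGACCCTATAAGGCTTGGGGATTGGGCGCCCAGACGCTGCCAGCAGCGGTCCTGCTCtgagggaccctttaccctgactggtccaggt
Prkaca: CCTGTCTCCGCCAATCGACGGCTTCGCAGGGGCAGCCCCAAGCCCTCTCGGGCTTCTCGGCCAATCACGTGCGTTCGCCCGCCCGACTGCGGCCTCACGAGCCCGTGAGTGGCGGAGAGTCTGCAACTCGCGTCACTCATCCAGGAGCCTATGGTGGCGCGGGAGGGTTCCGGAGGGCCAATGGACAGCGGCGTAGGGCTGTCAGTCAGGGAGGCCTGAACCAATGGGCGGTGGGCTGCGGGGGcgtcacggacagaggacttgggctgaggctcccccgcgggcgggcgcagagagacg

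The 3 windows differed in base composition. The Prkaca window held 69.7% G and C and 31 CpG, that of Plin4 65.0% and 7 CpG, and that of Lipe 60.0% and 2 CpG, beside a median of 52.7% and 7 CpG over all 32851 windows. Both strands were searched for the cyclic AMP response element TGACGTCA, its core TGACG, the nuclear receptor motif AGGTCA and its direct repeat 1, the C/EBP palindrome TTGCGCAA, the CCAAT box CCAAT, the GC box GGGCGG, the E-box CACGTG, the TATA box TATAAA and the steroid receptor motif TGTTCT. The Prkaca window held CCAAT 4 times, all inside the region, and 1.06% of all windows held it at least 4 times. It also held TGACG 2 times, at -120 inside the region and at -6 outside it, counted from 0 at the RefSeq start, in a motif that 20.8% of windows contain. GGGCGG was found 3 times there (35.7% of windows) and CACGTG 1 time, at -185 (7.2%). The Plin4 window held 1 CCAAT, at -18 inside the region (37.4% of windows). No motif searched was found in the Lipe window. The 8-base response element was in none of the 3 windows and in 1.8% of all windows, AGGTCA in none and 16.3%, TTGCGCAA in none and 0.2%, TATAAA in none and 13.6%, and TGTTCT in none and 19.0%. CACGTG overlaps none of the other motifs in the Prkaca window. The core TGACG lies within TGACGTCA, and AGGTCA within the direct repeat, which was in none of the 3 windows and in 0.0% of all windows.

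The lipase gene, Lipe, had lower heights in males. Lipe (GeneID 16890) is on the minus strand of chromosome 7, from 25379527 to 25395987, and had 2 regions, both inside it. Its height was 25.8 in male 1 and 17.3 in male 2, against 61.5 in female 1 and 46.9 in female 2. Both males lay below both females, with 21.1 between the higher male and the lower female. The mean was 21.5 ± 6.04 in males and 54.2 ± 10.4 in females (SD, n = 2 each). On the scale of log2(height + 9), the difference, male minus female, was -1.05 (SE 0.40), and it did not pass (limma adjusted p = 0.11 over all genes). The pseudocount makes such differences understate the change of low genes.

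The region printed above lies at chr7:25390085-25390379, from 267 bp before to 27 bp after the downstream RefSeq start of Lipe, at position 25390112. The gene is known to be transcribed from alternative first exons, with a longer form in testis and a shorter form in adipocytes. Its height was 27.6 in male 1, against 60.0 in female 1 and 53.4 in female 2, and a peak was called in these 3 libraries. Relative to that start the summit lay at -112 bp in male 1, at -128 bp in female 1 and at -64 bp in female 2. Within its own library, the summit of male 1 was higher than 38.5% of all summits, that of female 1 than 83.7% and that of female 2 than 85.8%. So this summit stood in the lower part of the peaks of male 1 and in the upper part in both females.

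The other region of Lipe, chr7:25395679-25395783, lies 0.3 kb inside the gene from its upstream start, and outside the promoter window there. A peak was called in female 1 only. Heights were nevertheless recorded without a peak: 24.0 in male 1 and 40.3 in female 2, each obtained as the remainder of the gene's mean, against 63.0 in female 1. The 40.3 of female 2 is above the median summit of that library, 33.7. In male 2 neither region had a peak, and only their mean, 17.3, is known. Both regions were linked also to 4732471J01Rik, LOC101055998 and Cxcl17. LOC101055998 and Cxcl17, a chemokine gene whose start is 17142 bp or more from the summits, had no region besides these, so their values are the same measurement as that of Lipe.

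Plin4 had the height with the least space between the sexes. Plin4 (GeneID 57435), on the minus strand of chromosome 17 from 56100591 to 56109802, had 1 region, chr17:56109764-56109913, which spans its RefSeq start from 131 bp before to 18 bp after it. The height was 19.1 in male 1 and 8.08 in male 2, against 42.0 in female 1 and 20.6 in female 2. Both males lay below both females, but the gap between male 1 and female 2 was 1.47. The mean was 13.6 ± 7.78 in males and 31.3 ± 15.2 in females (SD, n = 2 each). The log2 difference, -0.83 with an SE of 0.37, did not pass (limma adjusted p = 0.135).

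Only female 1 had a called peak at Plin4, with its summit at -106 bp from the RefSeq start and at -86 bp from the start in the deposited table. The region was linked also to Plin5, a perilipin of oxidative tissues, to Lrg1, which encodes a secreted glycoprotein, and to Hdgfrp2, which had a further region. Plin5 and Lrg1 therefore had the same height in all 4 libraries, from a region 7660 and 12058 bp downstream of their own starts. Of the 4 genes Plin4 is the one whose start the region covers.

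**Figure D1:**
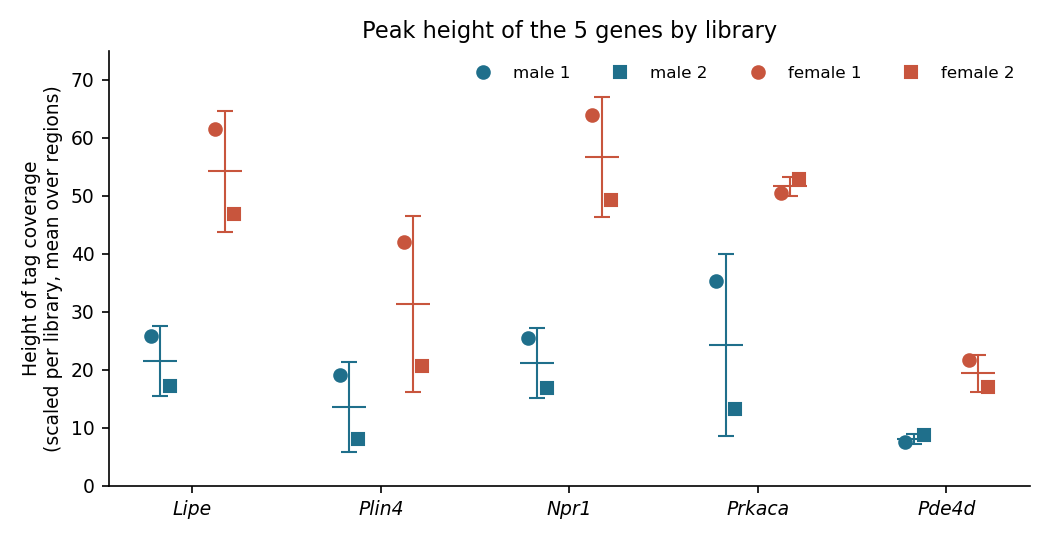
Height of tag coverage, averaged over linked regions, of each of the 5 genes in male libraries (blue, left) and female libraries (red, right), with the mean as a bar and the SD as error bars (n = 2 each). In each gene both males lie below both females, an order found in 76.4% of all genes, with a gap from 1.47 for Plin4 to 23.9 for Npr1.

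Npr1 had the largest difference of the 5 genes over the 4 libraries, though not with male 1 or female 1 left out, when that of Prkaca was larger, and its region lies outside the gene. Npr1 (GeneID 18160) is on the minus strand of chromosome 3 from 90450592 to 90465866. Its region, chr3:90446414-90446735, has its centre 19.3 kb from the start, beyond the gene's end, and was linked to no other gene. No merged region overlapped the promoter window of Npr1 or the gene itself. The height was 25.4 in male 1 and 16.9 in male 2, against 64.0 in female 1 and 49.3 in female 2. Both males lay below both females, with 23.9 between the higher male and the lower female. The mean was 21.2 ± 6.05 in males and 56.7 ± 10.4 in females (SD, n = 2 each). The log2 difference, -1.13 with an SE of 0.40, did not pass (limma adjusted p = 0.102).

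A peak was called at this region in male 2 and both females, and not in male 1, although the height of male 1 exceeded that of male 2. The summits of male 2 and female 2 fell on the same position, 90446496, and that of female 1 at 90446656. Since 92.7% of all summits lay on a grid of 32 bp, an equal position is a coarse match. The summit of male 2 was higher than 30.2% of the summits of its library, against 87.4% in female 1 and 81.4% in female 2. As for Lipe, the peak stood in the lower part of the male peaks and high among the female ones.

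Prkaca had the highest single region of the 5 genes in male 1 and both females, and in male 2 a region of Pde4d was slightly higher. Prkaca (GeneID 18747), on the plus strand of chromosome 8 from 83972978 to 83996445, had 4 regions. The averaged height was 35.3 in male 1 and 13.2 in male 2, against 50.5 in female 1 and 52.8 in female 2. The males differed by more than the females, and both lay below both females. The mean was 24.3 ± 15.6 in males and 51.7 ± 1.64 in females (SD, n = 2 each). The log2 difference, -0.95 with an SE of 0.40, did not pass (limma adjusted p = 0.129).

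The promoter region of Prkaca, chr8:83972651-83972971, from 327 to 7 bp before the start, was the only one of the 13 with a peak in all 4 libraries, a pattern of 19.9% of all regions. Its height was 70.7 in male 1 and 21.3 in male 2, against 88.0 in female 1 and 124.9 in female 2. Male 1 lay nearer to female 1 than to male 2. The summit of male 1 was higher than 99.3% of the summits of its library, that of male 2 than 53.5%, that of female 1 than 97.5% and that of female 2 than 99.9%. Summits lay at -82 bp from the start in male 1 and female 2, at -210 bp in male 2 and at -242 bp in female 1. This region was linked also to Asf1b, a histone chaperone gene, 17042 bp or more downstream of its start. The other RefSeq start of Prkaca, at 83976883, had no region over its window.

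The other regions of Prkaca lie beyond the gene's end, 23.9, 24.2 and 31.9 kb from its start. The pair nearer to the gene, chr8:83996836-83996940 and chr8:83997104-83997301, has summits between -776 and -424 bp from the start of Samd1, which encodes a sterile alpha motif protein, and was linked also to 1700067K01Rik. Their mean height, with no peak called, was 21.6 in male 1 and 12.1 in male 2. In female 1 the heights were 41.0 and 44.0, both with a peak, and in female 2 24.7 without and 32.9 with a peak. The region at 83997104 was the only region of the 13 with a peak in both females and neither male, a pattern of 12.9% of all regions.

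The farthest region of Prkaca, chr8:84004795-84004891, showed how far a called peak and a height can part. A peak was called in female 2 only, where the height was 28.8. Without a peak, female 1 had 29.0 and male 1 had 27.6, and male 2 had 7.34. Male 1 thus lay just under both females, and male 2 far under them. It was linked also to Samd1, 1700067K01Rik, 2210011C24Rik and Mir1199.

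Pde4d had the lowest mean height of the 5 genes in each sex, and the most regions, although in male 2 Plin4 was lower still. Pde4d (GeneID 238871) spans 1301.8 kb on the plus strand of chromosome 13, from 108654177 to 109955969, and is known for many isoforms with starts of their own. All 5 of its regions lie inside the gene, 786.9 to 1260.9 kb from its start, and none was linked to another gene. Only 0.52% of the genes of the table had 5 regions or more. The height was 7.49 in male 1 and 8.66 in male 2, against 21.6 in female 1 and 17.1 in female 2. Both males lay below both females and close to each other. The mean was 8.08 ± 0.829 in males and 19.3 ± 3.18 in females (SD, n = 2 each). The log2 difference, -0.73 with an SE of 0.35, did not pass (limma adjusted p = 0.147).

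Within Pde4d the region at chr13:109822411-109822620 went another way than the mean of the gene in male 2. Male 1 had no separate height there. Its height was 22 in male 2, against 21.0 in female 1 and 18.9 in female 2, with a peak in these 3 libraries. This was the only region, of the 5 with a height of their own in male 2, in which male 2 was not below both females. Its height in male 2 is known only because a peak was called there, so the region was in effect picked for being high in male 2. The summit of male 2 was higher than 56.9% of the summits of its library, against 7.1% in female 1 and 7.4% in female 2. Without it, the other 4 regions averaged 5.32 in male 2 and 16.6 in female 2. In female 1, the library with a peak in each, those regions had heights of 21.0, 20.0, 19.0 and 27.0, in order along the gene, at chr13:109441008-109441092, chr13:109481455-109481667, chr13:109776234-109776328 and chr13:109915003-109915095. These were low among the peaks of female 1, above 4.2% to 20.7% of its summits. Male 1 had no peak at any of the 5 regions, and its mean over them was 7.49.

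**Figure D2:**
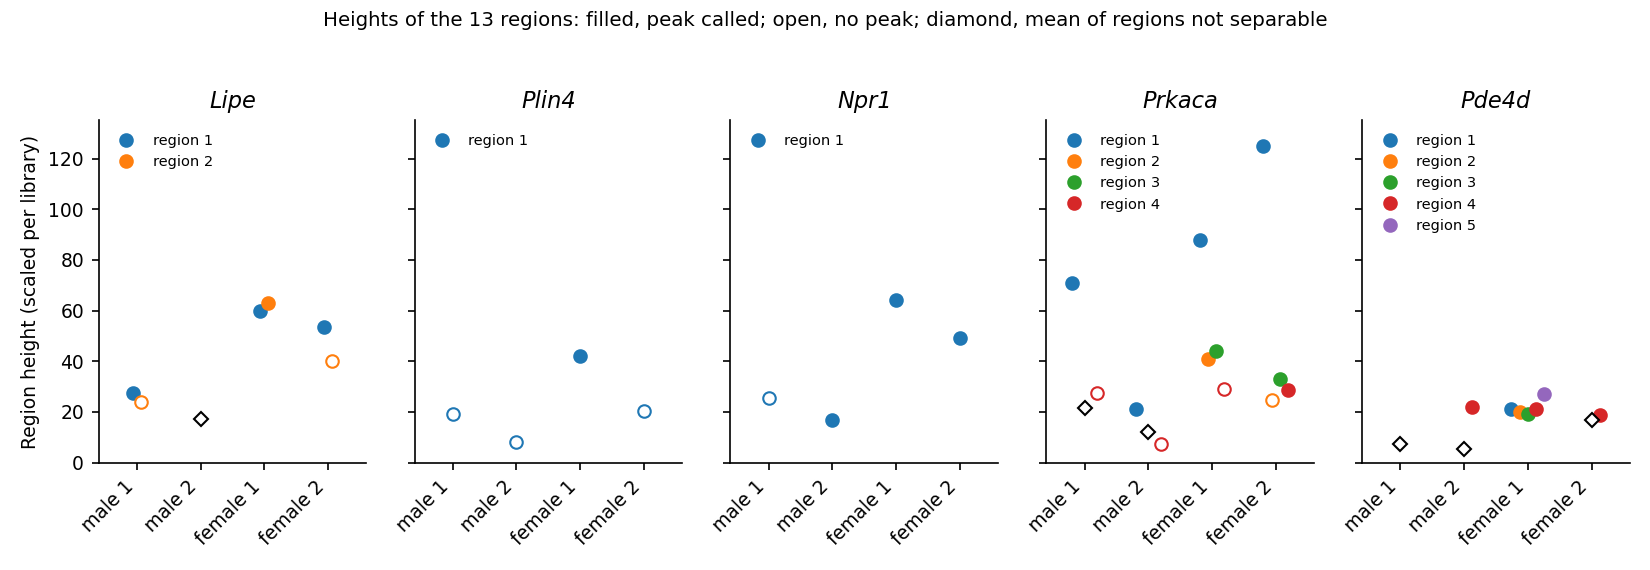
Height of each linked region (y axis, scaled per library) in the 4 libraries (x axis), 1 panel per gene. Filled circles had a called peak, open circles had none, and diamonds give the mean of regions whose single heights cannot be told apart. The promoter region of Prkaca reaches 124.9 in female 2, and the Pde4d region with 22 in male 2 lies level with the females.

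Counted over the 13 regions, peaks were called at 2 in male 1 and 3 in male 2, against 12 in female 1 and 6 in female 2. Over all 12477 regions the shares with a peak were 43.0% in male 1 and 32.4% in male 2, against 79.9% in female 1 and 62.8% in female 2. A peak in female 1 alone was found at 7 of the 13 regions, and at 23.1% of all regions. Of these 7 regions, 4 belong to Pde4d, and another is the only region of Plin4. The rest are the Lipe region at 25395679 and the Prkaca region at 83996836. All 7 are in the merged set only through the peak of female 1, a choice that favours a high value in that library. The lower male heights of Plin4 and Pde4d, and in part those of Lipe and Prkaca, are to be read with that limit. The Prkaca regions at 83997104 and 84004795 likewise entered the merged set through female peaks only. A peak in female 2 alone was found at 1 region (10.4% of all), and none of the 13 had peaks in both males and neither female (0.465% of all).

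**Figure D3:**
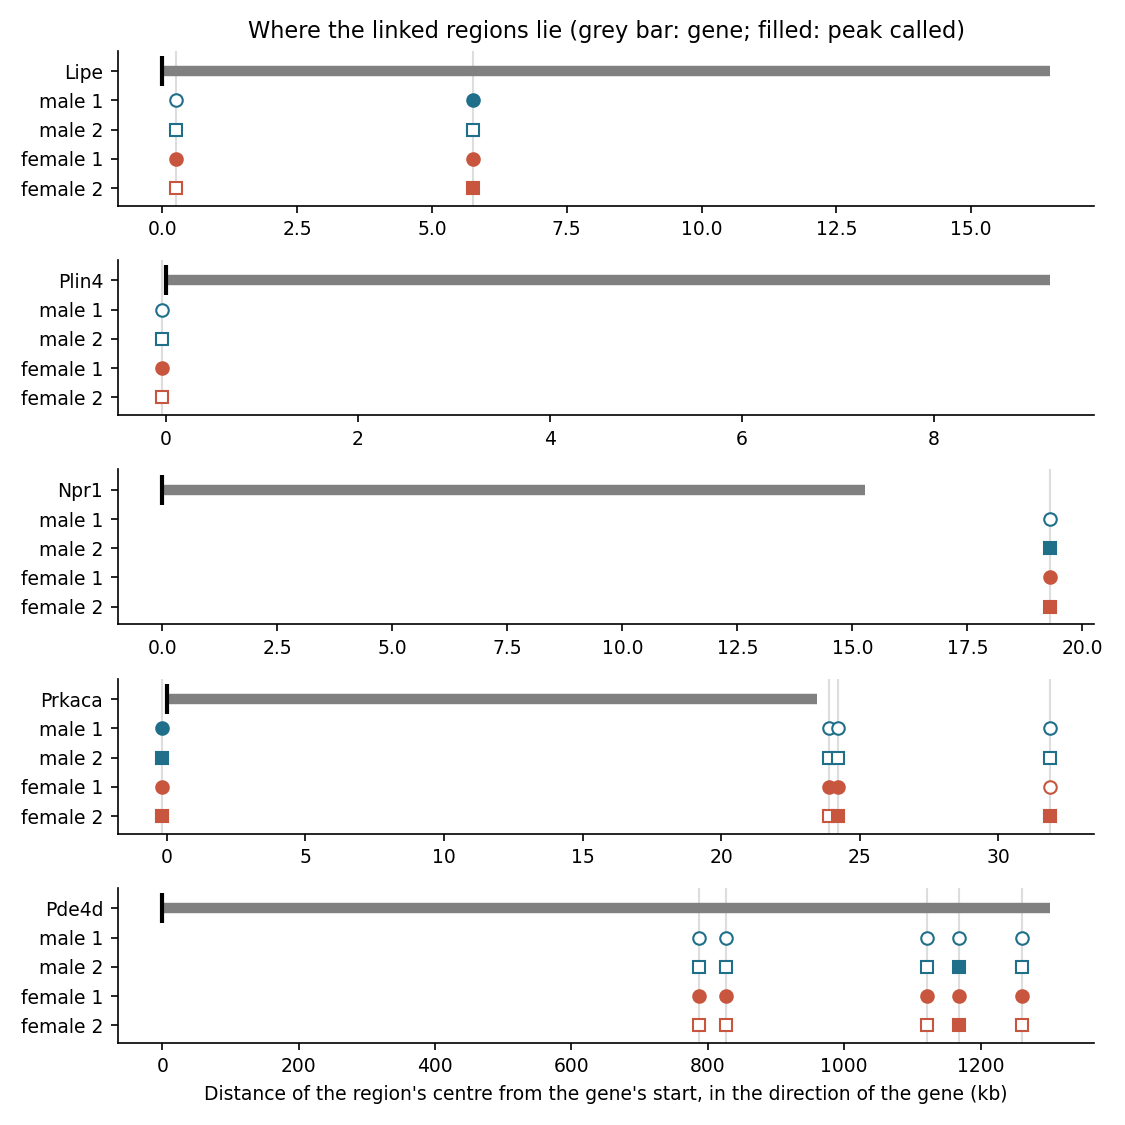
Position of the 13 regions (x axis, kb from each gene's start in the direction of the gene; the scale differs between panels) and whether a peak was called in each library (filled) or not (open). The grey bar is the gene, blue marks are males and red marks females; the 5 regions of Pde4d lie 786.9 kb or more inside the gene.

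Across the 5 genes none passed the test of sex (limma with trend, Benjamini-Hochberg adjusted p under 0.05 over all 11993 genes), where 0.592% of all genes were called lower and none higher in males. At an unadjusted p under 0.05 all 5 were lower, as were 31.4% of all genes. In all 5 both males lay below both females, an order found in 76.4% of all genes, so the count of 5 is read against that share. With 2 libraries a sex, 0.33 is the smallest two-sided p an exact permutation test allows. Without male 1, Lipe, Plin4, Npr1 and Prkaca passed (limma adjusted p = 0.00512, 0.00679, 0.00336 and 0.00156), as did 53.3% of all genes as lower in males. In that fit the only male library is assumed to vary like the females, from which the spread was taken. Without male 2 none of the 5 and no other gene passed (986 genes at an unadjusted p under 0.05). Over the alternatives with all 4 libraries and no block by replicate number, the limma adjusted p of Lipe ran from 0.0527 to 0.638. It ran from 0.0901 to 0.813 for Plin4, from 0.0472 to 0.638 for Npr1 and from 0.0679 to 0.749 for Prkaca. Without the trend in limma, which lets the spread follow the height, Npr1 alone of the 5 passed (limma adjusted p = 0.0472), beside 3.47% of all genes lower.

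The median log2 difference of all genes was -0.63, so the genes are better read against it. Relative to that median Npr1 lay at -0.50, Lipe at -0.43, Prkaca at -0.32, Plin4 at -0.20 and Pde4d at -0.10. Of all genes, 3.2% had a lower difference than Npr1, 5.7% a lower one than Lipe, 11% than Prkaca, 22.3% than Plin4 and 35.1% than Pde4d. On this scale Npr1 and Lipe thus lay towards the lower end of all genes and Pde4d near the middle. The place of Pde4d depends on the pseudocount of 9, since its male heights were 7.49 and 8.66. With a pseudocount of 1 the difference was -1.16 for Pde4d, -1.17 for Plin4 and -1.21 for Prkaca. It was then -1.31 for Lipe and -1.39 for Npr1, beside a median of -0.84. As a ratio of mean heights, male over female, Pde4d (0.418) was below Plin4 (0.434) and Prkaca (0.47).

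**Figure D4:**
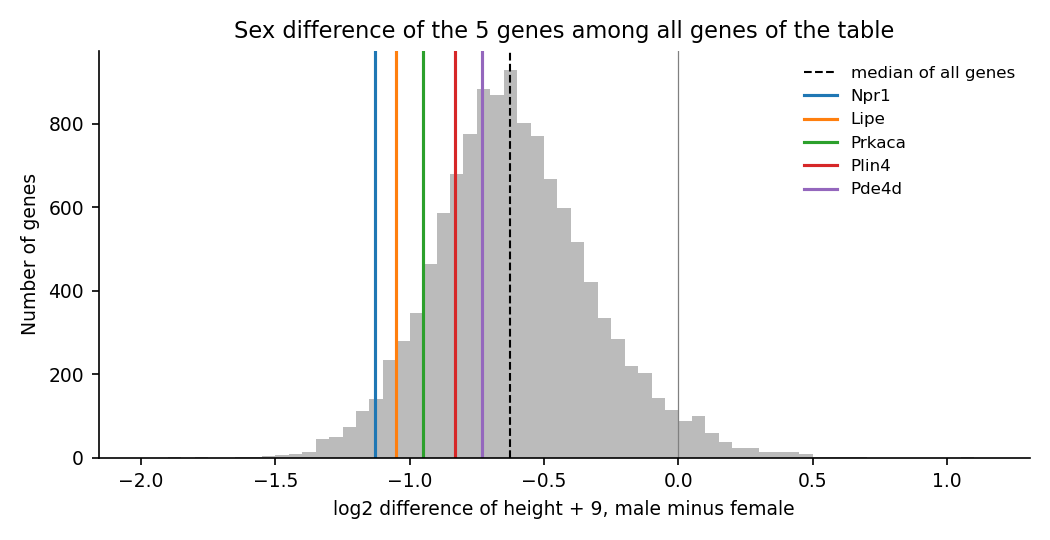
Number of genes (y axis) by log2 difference of height + 9, male minus female (x axis), over all 11993 genes, with the 5 genes as coloured lines and the median of all genes, -0.63, as a dashed line. On this scale, which understates the change of low genes such as Pde4d, Npr1 and Lipe lie furthest below the median and Pde4d closest to it.

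With each library set against its own median, the groups stayed apart in Lipe and Npr1 and overlapped in the other 3 genes. On that log2 scale Lipe lay at 0.08 and 0.15 in male 1 and male 2, against 0.58 and 0.51 in female 1 and female 2. Npr1 lay at 0.06 and 0.13 in males, against 0.64 and 0.57 in females. Prkaca lay at 0.42 and -0.09 in males, against 0.34 and 0.66 in females. Plin4 lay at -0.23 and -0.47, against 0.12 and -0.41, and Pde4d at -1.0 and -0.42, against -0.62 and -0.59. Both centred males lay below both centred females in 21.7% of all genes. With libraries centred, limma called 0 of all genes, Lipe and Npr1 included, the adjusted p of Npr1 being 0.609. At an unadjusted p under 0.05 there were 962 genes. Markers of mammary epithelium, which lies within the inguinal subcutaneous fat pad of female mice, moved with sex: 5 of 15 were measured, none at 0, with summed heights of 80.2 and 39.7 in males and 173.0 and 134.8 in females, and a median of -0.57 relative to all genes, against -0.02 for the adipocyte markers. Other lists also lay below all genes, with a median of -0.58 for the only muscle marker measured, -0.32 for 3 mural and -0.21 for 2 lymphocyte markers. Endothelial, progenitor and macrophage markers lay at 0.07, 0.24 and 0.28, and Schwann cell markers at 0.00. The part of these cells in the values of the 5 genes was not tested.

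Ordered by mean height, the genes ran, in males, Prkaca, Lipe, Npr1, Plin4 and Pde4d, and in females Npr1, Lipe, Prkaca, Plin4 and Pde4d. The ranges of Lipe, Npr1 and Prkaca overlapped in both sexes, as did those of Plin4 and Pde4d. In males the range of Plin4 also overlapped those of Lipe, Npr1 and Prkaca, and in females it lay below them. Within a library, Plin4 was above Pde4d in male 1 and both females, and below it in male 2. The genes were not tested against each other. Profiles over the 4 libraries were compared by the Euclidean distance between log2(height + 9) values. The search left out predicted genes, small RNA genes, pseudogenes and genes sharing a region with the gene in question. Among the genes searched the profile of Lipe was the closest to that of Npr1, at 0.0839, although their regions lie on different chromosomes. After Npr1, the genes nearest to Lipe were Sec63 (0.105) and Ercc4 (0.137). After Lipe and Cxcl17, which share their regions, those nearest to Npr1 were Tfap4 (0.116) and Capn7 (0.127). Nearest to Plin4 were Slc35e3 (0.129), Akap13 (0.134) and Prrt4 (0.143), nearest to Prkaca were Rhof (0.0919), Fam20b (0.108) and Ppp1r16a (0.127), and nearest to Pde4d were Egln3 (0.12), Ehd3 (0.127) and Etv1 (0.15). Profiles over 4 libraries are rarely distinctive: between 343 of the genes searched, for Pde4d, and 1077, for Lipe, lay within a distance of 0.5.

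The wider pathway was covered by a list of 127 genes of lipolysis and cyclic nucleotide signalling, of which 74 were measured, the 5 genes included. None passed in either direction (limma adjusted p over all genes), 25 were lower in males at an unadjusted p under 0.05 (31.4% of all genes), and 56 (75.7%) had both males below both females (76.4% of all genes). The median log2 difference was -0.63 for the list, the same as for all genes. Without male 1, 36 of the 74 passed, beside 53.3% of all genes, and without female 2, 1 did, beside 0.534% of all genes.

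By role, the enzymes of triglyceride hydrolysis had a median of 0.02 relative to all genes over 9 measured members. Pnpla2, adipose triglyceride lipase, which acts before the product of Lipe, had heights of 23.8 and 24.7 in males, against 50.7 and 32.9 in females, and lay at 0.04. Abhd5, the co-activator of that lipase, had 41.7 and 57.3 in males, against 48.0 and 62.5 in females. Its sexes overlapped (0.49 from the all-gene median, limma adjusted p = 0.773). Pnpla3, a lipase-like relative, and Ces1f, a carboxylesterase, lay at -0.28 and 0.02. Of these 9 genes 8 had a promoter window, and all 8 had a region over it, beside 70.2% of all genes with a window.

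The 10 measured lipid droplet genes had a median of 0.01, with Plin5 at the value of Plin4 and Bscl2, which encodes seipin, at 0.00, from a region shared with Hnrnpul2 and Gng3. The 6 measured receptors had a median of -0.15. Npr2, a guanylyl cyclase receptor like the product of Npr1, had 33.9 and 16.9 in males, against 61.0 and 46.9 in females, and lay at -0.28 (limma adjusted p = 0.135), from a region shared with Spag8 and Hint2. Tshr, the thyrotropin receptor, had 6.36 and 5.14 in males, against 18.0 and 15.6 in females (-0.18). Adrb3, Npr3, Gnas and Pde3b had no row in the table used and were not analysed here.

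Among the 12 G proteins and cyclases, with a median of -0.11, the adenylyl cyclase genes Adcy9 and Adcy7 had the smallest p. Adcy9 had 29.0 and 9.55 in males, against 50 and 42.7 in females (-0.43 from the all-gene median, limma adjusted p = 0.11). Adcy7 had 9.19 and 9.55 in males, against 26.0 and 28.8 in females (-0.36 from it, limma adjusted p = 0.106). The 16 kinases and anchors had a median of -0.09. Akap6, an anchor of protein kinase A, had 1.41 and 2.20 in males, against 16 and 9.86 in females (-0.38, limma adjusted p = 0.0945). Rapgef3, the cyclic AMP sensor Epac1, had 10.6 and 9.55, against 31.0 and 29.6 (-0.41, limma adjusted p = 0.0988). Prkar2b, the regulatory subunit of protein kinase A that prevails in fat, had 31.3 and 16, against 52.0 and 38.8 (-0.14).

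Of the phosphodiesterases 10 were measured, with a median of 0.06, and the paralogs of Pde4d spread widely. Pde4a had 15.6 and 11.7 in males, against 48.0 and 37.0 in females (-0.55 from the all-gene median, limma adjusted p = 0.0935). Its region was shared with Keap1 and Gm16754. Pde4c had 48.4 and 24.6 in males, against 88.5 and 77.7 in females (-0.44, limma adjusted p = 0.112), from regions shared with Rab3a, Mpv17l2 and Ifi30. Pde4b, named here after its values were seen, had 18.7 and 6.98 in males, against 17.5 and 18.1 in females, and its sexes overlapped (0.28). The 11 nuclear targets of cyclic AMP had a median of 0.12, and Crtc1, a co-activator of CREB, had the lowest difference of the list. Its region, over its promoter window, had 38.2 and 22 in males, against 90.0 and 75.6 in females. The log2 difference was -1.26, or -0.63 from the all-gene median (limma adjusted p = 0.0945). Its relative Crtc2 lay at -0.08.

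**Figure D5:**
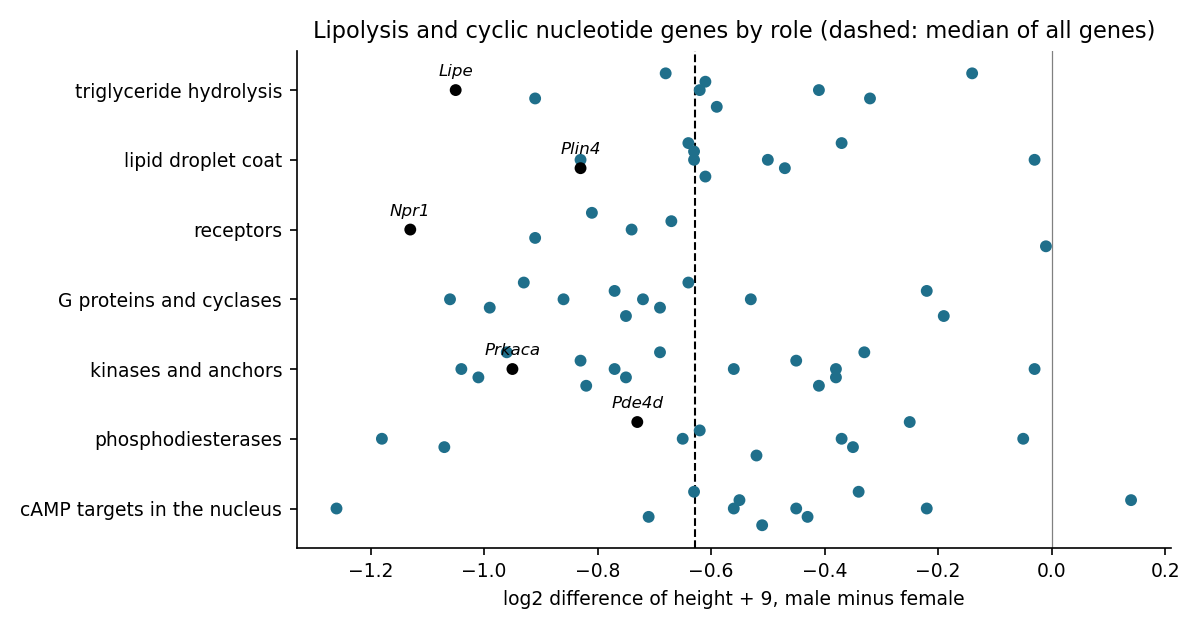
Log2 difference of height + 9, male minus female (x axis), of the 74 measured pathway genes, grouped by role (y axis; vertical scatter within a role carries no value). Black points are the 5 genes described and blue points the others, which spread on both sides of the dashed median of all genes, -0.63.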

How the data were processed

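ATAC-seq libraries were made from nuclei with Tn5 and PCR, per the labels' protocols. The submitters' processing notes name BWA, MACS2 2.1.0 and mm10. The authors deposited a signal, the height of tag coverage, averaged per gene and scaled by a factor per library, for which no source used here gives the basis. They also deposited counts of intervals and merged regions per gene, and, per the file headers, tracks of summits, intervals and merged regions. No header or label used here states filters, duplicate removal or a Tn5 shift. No per-library column was left unused (0).

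Heights of single regions were solved from the means of all genes sharing them together with the summits, to a largest misfit of 0.001. In genes with 1 region and a peak, 97.2% of 19900 heights equalled the summit within 0.01. Where regions could not be separated, their mean is given. Of all summits, 92.7% lay on a grid of 32 bp. Positions count from 1.

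Male and female libraries were compared on log2(height + 9) by limma 3.58.1 (R 4.3.3), using trend and no replicate block. The pseudocount, 9, rounds up the 5th percentile of nonzero heights. The spread in this fit came wholly from the trend across genes, not from the libraries of a single gene. All 11993 genes had a height above 0 in at least 2 libraries. The fit was tried on simulated data with independent noise of the same spread in all genes and no shift between whole libraries. The trial therefore does not show how the fit behaves under the library-wide difference seen here. Python 3.11.15, pandas 2.3.3, numpy 2.4.6 and matplotlib 3.10.9 were used. Each peak was assigned to the merged region that holds the midpoint of its interval. Regions were matched to promoter windows by an overlap of at least 1 bp. Named besides the 5 genes were those sharing a region, the 3 with the nearest profiles, the 2 with the smallest p per role and a fixed set of pathway genes. Promoter sequences are from RefSeq (GRCm38.p6). The members, lists and tests were chosen with earlier results of these data known. Alternatives covered pseudocount, filters, scaling, trend, a replicate block, a row per set of regions, peak thresholds and each library left out.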

Additional observations from a re-analysis of the deposited data

How the results depend on the processing

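Every difference of the 5 genes kept its sign under every alternative that gave a value. Over all genes, 71 calls became 0 when the lowest 25% of genes by mean height were dropped (Pde4d among them), 0 with libraries centred, 0 with quantile normalization and 416 without trend, and lay between 0 and 6419 with a library left out, where the lone library of a sex is assumed to vary like those of the other. Pathway calls were 3 without trend and lay between 0 and 36 with a library left out. With a library left out, Lipe ranged from -1.26 to -0.85, Plin4 from -1.22 to -0.43, Npr1 from -1.33 to -0.92, Prkaca from -1.45 to -0.45 and Pde4d from -0.84 to -0.61. Npr1 passed without trend at -1.13 (limma adjusted p = 0.0472). With all 4 libraries and no replicate block, its limma adjusted p ran from that value to 0.638.

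With the replicate number as a block, 6925 genes and 42 pathway genes passed (57.7% of all genes lower), as did Lipe (-1.05), Plin4 (-0.83), Npr1 (-1.13), Prkaca (-0.95) and Pde4d (-0.73). Nothing in the labels makes a number mark a shared animal or day. Deviations of same-numbered libraries from their sex means correlated at 0.017 over 11993 genes. Such a correlation does not register a shift common to all genes of a library. The library numbered 1 had the higher mean height in both sexes (25.3 against 16.8 in males, 40.9 against 32.5 in females). Whether same-numbered libraries share more than a number was not tested.

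With summits above their library's median only, peaks at the 13 regions numbered 1 in male 1 and 2 in male 2, against 7 in female 1 and 3 in female 2; over all regions the shares were 21.0% and 15.1% in males and 39.7% and 30.6% in females. The causes of these changes were not tested. Without read depths, absence of a peak is not absence of open chromatin.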

Other observations

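Some pathway genes, chosen here after their values were seen, did not share the library-wide difference between the sexes. Nr4a2, an immediate early nuclear receptor gene induced by cyclic AMP, had heights of 10.6 and 21.3 in males, against 18.0 and 9.04 in females, and the highest log2 difference of the 74 genes, 0.14. Plin2, a perilipin found on lipid droplets of most cells, had 29.0 and 15.4 in males, against 19.0 and 25.5 in females (log2 difference -0.03). Akap10, an anchor of protein kinase A, had 25.4 and 40.4, against 40.0 and 27.1 (-0.03). In each of these 3 genes the sexes overlapped, and none passed (limma adjusted p between 0.728 and 0.952).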
